A study of Rattus norvegicus with 12 samples.

Results

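The 10 genes described here encode precursors of neuropeptides with a known part in pain pathways: Tac1, Calca, Calcb, Sst, Adcyap1, Pdyn, Penk, Cck, Grp and Nts. They were chosen by name, as the array probes whose transcript accession belongs to one of these genes, and 12 probes did so. They are 10 of the 15159 genes that could be named on the array. RNA from dorsal root ganglia (DRG), from the left dorsal part of the spinal cord and from sciatic nerve was measured on 12 single-colour Agilent arrays.

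Female rats of 2 types were used. The wild-type rats were adult Sprague-Dawley by the labels, and their samples carry day 12 after the injection. The athymic nude rats (rnu-/-, Hsd:RH-Foxn1rnu) were 8 weeks old, lack mature T cells, and their samples carry day 7. The paper describes other wild-type animals for its nude comparison (heterozygous rnu+/-) and a week for both types. In both types the left sciatic nerve received 50 µg of MBP84-104, a fragment of myelin basic protein, in 5 µl, and the right nerve received PBS according to the labels. Each of the 12 conditions was 1 array holding RNA pooled from 3 rats. The controls were the right nerve, the right DRG and, for the cord, the left dorsal part above the lumbar enlargement. A side comparison in the cord is therefore also a comparison of segments.

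Neuropeptides are made as precursors, cut by convertases in dense-core vesicles, and released beside the fast transmitter. Small peptidergic sensory neurons of the DRG send substance P (from Tac1) and calcitonin gene-related peptide (CGRP, from Calca and Calcb) both to the skin and to the superficial dorsal horn, whereas enkephalin, dynorphin, somatostatin, gastrin-releasing peptide and neurotensin are well-known products of local dorsal horn interneurons. RNA is measured where the cell bodies lie, so peptide carried down an axon does not appear in these values.

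Several of these genes are textbook targets of cAMP signalling through the cAMP response element (CRE), so the sequence at their start sites is shown for a pair that was higher in DRG and 1 that was higher in cord. RefSeq promoter windows (GRCr8, from 250 bases before to 50 after an annotated start) were given for 7 of the 10 genes and not for Calcb, Penk and Cck. The letters TGACG, the CRE half-site, stood on either strand of 5 of these 7 windows, those of Tac1, Calca, Sst, Grp and Nts, while 21.2% of 33469 rat windows held them. The whole palindrome TGACGTCA, which contains the half-site on both strands, was found in Sst alone and in 1.83% of all windows. The sequences below run 5′ to 3′ on the strand of the gene, from 250 bases before the annotated start to 20 bases after it, with the half-sites in capitals.
Tac1 (chr4:36645333-36645602, plus strand): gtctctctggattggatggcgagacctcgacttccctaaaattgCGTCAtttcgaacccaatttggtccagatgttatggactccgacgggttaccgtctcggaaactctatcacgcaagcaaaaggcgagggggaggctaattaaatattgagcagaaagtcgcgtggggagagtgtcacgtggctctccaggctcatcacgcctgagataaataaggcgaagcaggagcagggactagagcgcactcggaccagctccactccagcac
Calca (chr1:178317510-178317779, minus strand): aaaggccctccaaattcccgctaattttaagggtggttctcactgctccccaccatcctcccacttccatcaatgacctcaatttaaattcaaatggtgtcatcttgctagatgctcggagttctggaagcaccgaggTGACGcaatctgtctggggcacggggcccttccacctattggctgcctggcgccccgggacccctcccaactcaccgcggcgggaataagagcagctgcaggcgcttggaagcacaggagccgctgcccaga
Sst (chr11:90461296-90461565, plus strand): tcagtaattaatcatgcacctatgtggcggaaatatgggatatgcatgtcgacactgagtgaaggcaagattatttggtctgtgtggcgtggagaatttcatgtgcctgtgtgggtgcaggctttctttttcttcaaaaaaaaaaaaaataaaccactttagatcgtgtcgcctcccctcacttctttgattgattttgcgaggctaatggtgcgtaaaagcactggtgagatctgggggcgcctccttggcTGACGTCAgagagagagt
The half-site of Calca began 112 bases before the start and that of Tac1 206 bases before it, and the Sst palindrome began at position 3 counted from the start. The Tac1 window belongs to a start inside the annotated gene, which begins at chr4:36645344. Its half-site therefore lies within the gene span and not upstream of it. The letters were present in genes of both tissue groups. A match describes the letters of the window and was not tested as a binding site.

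Levels are given as the log2 of a probe's signal over the median signal of its array, so that 0 is the middle of the array and a step of 1 is 2-fold. The extraction software marks spots well above background. A probe was counted as seen on an array where a majority of its spots carried that mark, and values below the array's floor, the lowest signal of any probe seen, were raised to the floor before ratios were formed. Between 59.5% and 76.9% of spots were well above background and the median signal ran from 23.5 to 122, with the dimmest array being the injected nude nerve. One slide held the nude arrays together with both wild-type nerve arrays, whereas DRG and cord of wild-type rats were on another, so rat type, labelled day, strain and slide cannot be told apart in DRG and cord. The tissue labels were checked with marker genes. Sensory neuron markers summed to between 494.6 and 512.9 times the array median on the DRG arrays and to between 123 and 170.7 on the cord arrays, with 15 of 16 seen on each DRG array. Oligodendrocyte markers summed to between 577.1 and 945.3 in cord and to between 12.21 and 13.67 in DRG, and all 5 were seen on each cord array.

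DRG and dorsal cord were compared first, to learn in which tissue each peptide gene is read. Of the 10 genes, 3 were higher in DRG (Tac1, Calca and Calcb), 6 were higher in cord (Sst, Pdyn, Penk, Cck, Grp and Nts) and 1, Adcyap1, passed neither way. Among all 10753 genes tested, 12% were called higher in DRG and 17.1% higher in cord. The median log2 difference, DRG minus cord, was -3.62 over the members and -0.15 over all genes tested. The test was limma over the 4 DRG and 4 cord arrays with rat type as a term, and a call needed a Benjamini-Hochberg adjusted p under 0.05 and at least 2-fold. Pdyn, Grp and Nts were seen on none of the DRG arrays, so they passed the filter of the test through the cord arrays alone. Their DRG values lay at or near the array floors, so their calls restate detection and their SEs and p-values are left out. Penk was seen on 1 DRG array and met the filter by its cord arrays alone, so its SE and p-value are left out too. Because a bulk sample mixes cells, fewer cells of a type and less RNA per cell cannot be told apart. The p-values measure the spread between these arrays, and the paper describes injected and control nerve, and both cord segments, as taken from the same animals.

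**Figure D1:**
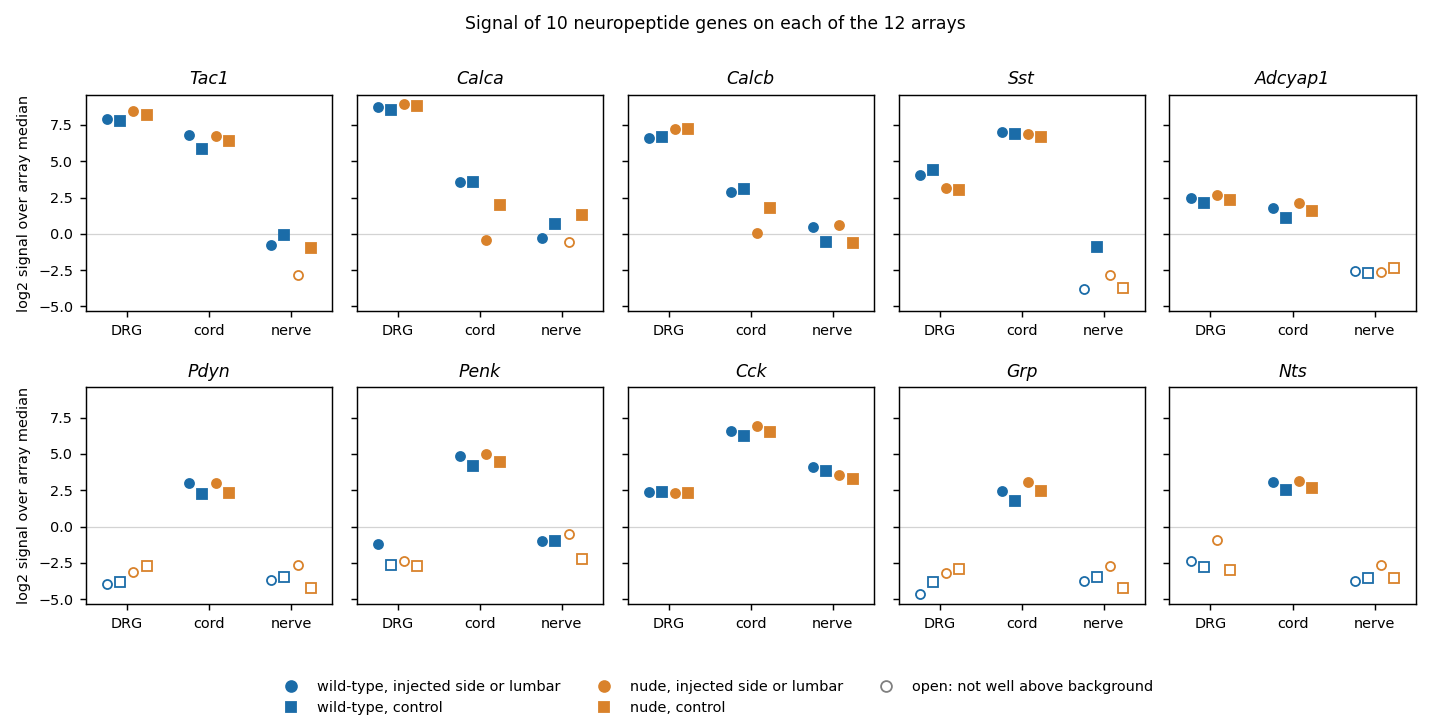
Level of each of the 10 genes (log2 of signal over the array median, y axis) on the DRG, cord and nerve arrays. Circles are the injected side or lumbar segment, squares the control, blue wild-type and orange nude rats, and open symbols were not well above background. Calca stood between 8.54 and 8.91 on all DRG arrays, and Pdyn, Grp and Nts were seen only on the cord arrays.

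Calca and Calcb encode the alpha and beta forms of CGRP, a vasodilator released from sensory endings, and Calca also gives calcitonin by splicing. Both lie on chromosome 1 (GRCr8), Calca at chr1:178312636-178317588 and Calcb at chr1:178399634-178404654. In DRG the level of Calca was 8.73 and 8.54 on the injected and control wild-type arrays and 8.91 and 8.81 on the nude ones. The lumbar and control cord segments gave 3.59 and 3.57 for wild-type but -0.40 and 2.02 for nude rats. The DRG arrays lay close together, at 8.75 ± 0.15 (SD, n = 4), whereas the cord arrays were far apart, at 2.19 ± 1.88 (SD, n = 4), and no cord array came near a DRG array. The difference was 6.56 on the log2 scale (SE 0.59), or 94.1-fold, with an adjusted p of 1.8e-06.

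Calcb was likewise far higher in DRG. Its levels there were 6.58 and 6.70 on the injected and control wild-type arrays and 7.24 and 7.19 on the nude ones. The wild-type cord gave 2.90 and 3.09 and the nude cord 0.03 and 1.81, lumbar segment first. The log2 difference was 4.97 (SE 0.49, adjusted p = 3.9e-06), or 31.4-fold. The nude arrays were lower in cord and higher in DRG than the wild-type ones for both genes, without a test of that difference. Before centring on the array medians, the DRG signals of Calca were 10930 and 8778 in nude against 24500 and 14060 in wild-type rats. Those of Calcb were 3455 and 2860 against 5514 and 3908. The medians of these arrays were 34.41 and 30.01 in nude and 88.27 and 57.31 in wild-type rats. The direction in DRG therefore rests on the centring. Within wild-type rats Calca differed by 5.06 and Calcb by 3.65, and within nude rats by 8.05 and 6.30. A second Calca probe was seen on none of the 12 arrays, and when both probes were averaged the difference of Calca was 3.62. The files do not say which splice form either probe reports.

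Tac1 (chr4:36645344-36653548), the precursor of substance P and neurokinin A, was high in both tissues. The DRG levels were 7.92 (wild-type injected), 7.80 (wild-type control), 8.44 (nude injected) and 8.22 (nude control). In the cord they were 6.78 and 5.85 in wild-type and 6.75 and 6.38 in nude rats, lumbar segment first. Every DRG array was above every cord array, by a smaller margin than for the CGRP genes, and the log2 difference was 1.65 (SE 0.17, adjusted p = 6.7e-06), or 3.15-fold. Of the 10753 genes tested, 6795 had no overlap between the DRG and cord arrays. The second Tac1 probe gave 1.69. Adcyap1 (chr9:120550236-120569096) encodes PACAP, a peptide related to VIP that acts through cAMP. Its levels were 2.44, 2.13, 2.69 and 2.35 in DRG and 1.78, 1.11, 2.12 and 1.54 in cord, in the same order of arrays. The DRG and cord arrays of Adcyap1 did not overlap either. Its difference of 0.77 (SE 0.18, adjusted p = 0.0025 by limma) was 1.70-fold and so under the fold that a call needed. After another background correction (normexp) it was 0.22 with an adjusted p of 0.19. Before centring, its nude signals were lower in DRG (147.4 and 99.6) than in cord (242.4 and 156.6). Its wild-type signals overlapped, at 313 and 165.2 in DRG and 187.4 and 161.2 in cord. The order of its arrays therefore rests on the centring.

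Among the genes higher in cord, Sst and Cck were seen in both tissues. Sst (chr11:90461546-90462823), the precursor of the inhibitory peptide somatostatin, had levels of 7.03, 6.90, 6.90 and 6.65 in cord (wild-type lumbar and control, then nude lumbar and control). In DRG the wild-type arrays gave 4.06 and 4.41 and the nude arrays 3.19 and 2.99. The log2 difference was -3.21 (SE 0.18, adjusted p = 3.8e-08), which is 9.24-fold higher in cord. Cck (chr8:130031012-130037702) encodes cholecystokinin, a peptide known for opposing opioid analgesia. Its cord levels ran from 6.21 to 6.91 and its DRG levels from 2.30 to 2.41. With this narrow spread in DRG the difference was -4.20 (SE 0.13, adjusted p = 5.7e-10), or 18.4-fold.

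The opioid precursors Penk and Pdyn were hardly seen in DRG. Penk (chr5:21981381-21987074), which gives the enkephalins, had cord levels of 4.85, 4.16, 4.98 and 4.42. In DRG it was seen on 1 of 4 arrays, the injected side of wild-type rats, at -1.18, where all 10 of its spots were well above background against 1 of 10 on the control side. The log2 difference of -5.84, or 57.1-fold, has the other DRG arrays at their floors. The fold is therefore a lower limit, and its SE and p-value are left out. Pdyn (chr3:137354161-137366503), which gives the dynorphins, had cord levels of 2.97, 2.28, 3.01 and 2.34 and was not well above background on any DRG array. It was at least 18.9-fold higher in cord (log2 difference -4.24).

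Grp and Nts had the same pattern as Pdyn. Grp (chr18:61658655-61672037) encodes gastrin-releasing peptide, best known in the dorsal horn for its part in itch. Its cord levels were 2.48, 1.76, 3.05 and 2.45, no DRG array was well above background, and cord was at least 16.3-fold higher (log2 difference -4.03). Nts (chr7:39451484-39460888) encodes neurotensin, and its cord levels were 3.10, 2.55, 3.15 and 2.65. It was at least 20.1-fold higher in cord (log2 difference -4.33). Of the 2 Nts spots, 1 was well above background on both injected-side DRG arrays and none on the control-side ones, which left Nts uncounted there. After normexp correction, which shrinks dim signals, the differences of Pdyn, Grp and Nts were -2.31, -2.11 and -2.43 and stayed past 2-fold. With the floors taken away those of Pdyn and Grp were -6.06 and -6.08.

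**Figure D2:**
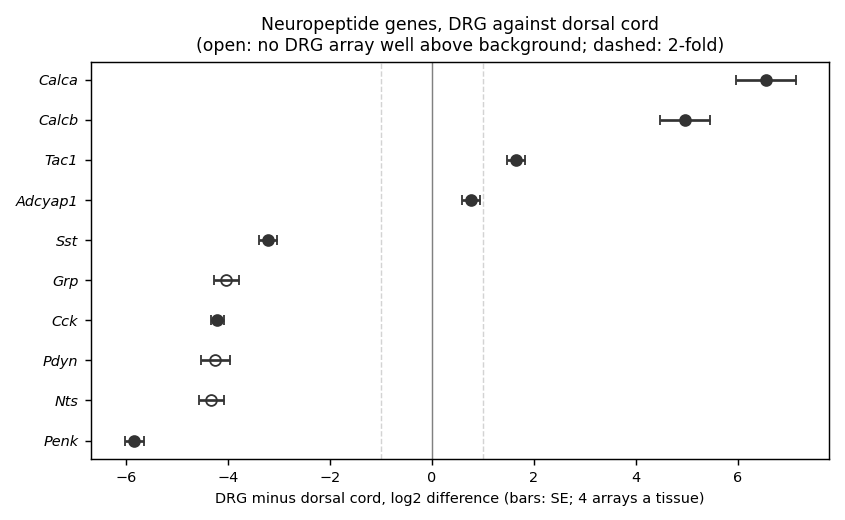
Log2 difference between DRG and dorsal cord for the 10 genes (x axis, above 0 means higher in DRG), with bars of 1 SE from limma over 4 arrays a tissue and dashed lines at 2-fold. Calca at 6.56 and Penk at -5.84 mark the ends, and Adcyap1 at 0.77 lies inside the dashed lines. Open points are genes not well above background on any DRG array. Their DRG values lie at or near the floors, so their bars do not measure spread in DRG. Neither does the bar of Penk, drawn filled but seen on only 1 DRG array.

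Receptors of these peptides, like all genes tested, were called higher in cord more often than in DRG. Of 25 receptor genes on the array 21 were tested, with 1 higher in DRG, 7 higher in cord and 13 neither, and a median difference of -0.54. Over all genes tested, 12% were higher in DRG and 17.1% in cord. The neurokinin receptors Tacr1, which binds substance P, and Tacr3 had log2 differences of -1.57 and -2.37, and neither was well above background on any DRG array. The somatostatin receptors Sstr1, Sstr2 and Sstr3 gave -3.66, -4.02 and -2.19, the CCK receptor Cckbr -1.84 and the neurotensin receptor Ntsr2 -5.23. Those of Tacr1, Tacr3, Sstr2 and Cckbr are bounds, with DRG at the floor. Vipr2, a receptor shared by PACAP and VIP, was higher in DRG by 1.12. The parts of the CGRP receptor did not pass, with -0.63 for Calcrl and 0.24 for Ramp1, and neither did the opioid receptors Oprm1 (1.00), Oprd1 (0.60) and Oprk1 (-0.72). The remaining receptors tested lay between -0.72 (Ntsr1) and 0.42 (Ramp3), with Nmbr at -0.54 as a bound, Sstr4 at -0.49, Tacr2 at 0.16, Sstr5 at 0.24, Vipr1 at 0.33 and Ramp2 at 0.36. Calcr, Adcyap1r1, Cckar and Grpr were seen on too few of these arrays to be tested.

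Other neuropeptide genes were called in both directions. Of 32 tested, 9 were higher in DRG and 8 in cord, with a median difference of 0.19. The shares over all genes tested, 12% in DRG and 17.1% in cord, also stand beside the counts of the lists that follow. Nmb, which encodes neuromedin B of sensory neurons, was higher in DRG by 3.76, and Nppb, the natriuretic peptide of itch afferents, by 4.63 as a bound. Tac3, which encodes neurokinin B, was lower in DRG at -4.51, and Pnoc, the precursor of nociceptin, at -4.15. Of 14 genes of peptide processing 2 were higher in DRG and 6 in cord. Pcsk1, the prohormone convertase of the regulated pathway, had a difference of 2.27 and its inhibitor Pcsk1n one of -3.49, while carboxypeptidases Cpe and Cpd, which trim the cut ends, gave -2.83 and -2.64. Granins, which pack dense-core vesicles, were higher in cord for 4 of 5 genes, among them Vgf at -2.70, Chga at -2.48, Chgb at -2.44 and Scg2 at -1.68. Of 9 peptide-degrading enzymes 3 were higher in DRG, namely neprilysin Mme (1.74), Ece1 (1.58) and Ace (1.28). Of 14 genes that respond to a cut axon, 3 were higher in DRG, namely the transcription factors Atf3 (3.41) and Jun (1.12) and Reg3b (3.13), and Cckbr was higher in cord. Reg3b was seen on only 1 cord array. Its DRG levels, from -0.66 to 2.94, overlapped with its cord levels, which reached -0.04.

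In DRG the injected and control sides were then compared, to learn whether peptide genes differ after MBP84-104 was given to the nerve. None of the members differed by 2-fold in either rat type. The wild-type ratios of the 7 genes seen on at least 1 of these arrays ran from -0.35 (Sst) to 0.55 (Penk), and the nude ratios of 6 genes from 0.02 (Cck) to 0.34 (Adcyap1). Over all genes, 1.01% reached 2-fold in wild-type and 1.07% in nude rats. These are single arrays with no replicate check.

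Adcyap1 stood highest of those seen on all 4 DRG arrays, with an injected minus control ratio of 0.31 for wild-type and 0.34 for nude rats. Tac1 gave 0.13 and 0.23, and Calca 0.19 and 0.09. The sign of 2 genes differed between the rat types, Calcb at -0.12 and 0.05 and Sst at -0.35 and 0.19. Cck gave 0.06 and 0.02. The ratio of Penk in wild-type rats, 0.55, is against the floor of the control array, and without floors it was 1.46.

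A side difference shared by both rat types was tested with limma over the 12 arrays. On simulated data this fit recovered 88 of 200 genes changed 2-fold in DRG, so it can miss changes of that size. None of the 7 members was called, and none had an unadjusted p under 0.05, while the fit called 0.0527% of 11376 genes, or 6 genes, with 165 at an unadjusted p under 0.05. The shared differences of the members ran from -0.08 (Sst) to 0.33 (Adcyap1), with SEs from 0.18 to 0.35, and every adjusted p was 1. The called genes included other peptides of sensory neurons. Gal, the precursor of galanin, was higher on the injected side by 1.72 (SE 0.19, adjusted p = 0.00019), with a wild-type ratio of 1.79 and a nude ratio of 1.64. Vip was higher by at least 3.19, where the control-side arrays were at their floors. Gal and Vip belong to a list of genes known to respond when an axon is cut, of which 3 of 14 were called. The third was Csrp3, by at least 2.39, again with both control-side arrays at their floors. Vip and Csrp3 entered the test through the injected-side arrays alone. Their calls restate detection there, so their SEs and p-values are left out. Atf3, an injury transcription factor of the same list, was not called, at 1.00 in wild-type and 0.79 in nude rats (adjusted p = 0.76), and neither was Npy (-0.34, adjusted p = 1). Ucn had ratios of 1.63 and 1.09, both against floors. Skeletal muscle markers summed to 14.9 and 13.0 times the median on the injected and control wild-type DRG arrays but to 24.7 and 2.67 on the nude ones, and the part of this tissue in the nude ratios was not tested.

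**Figure D3:**
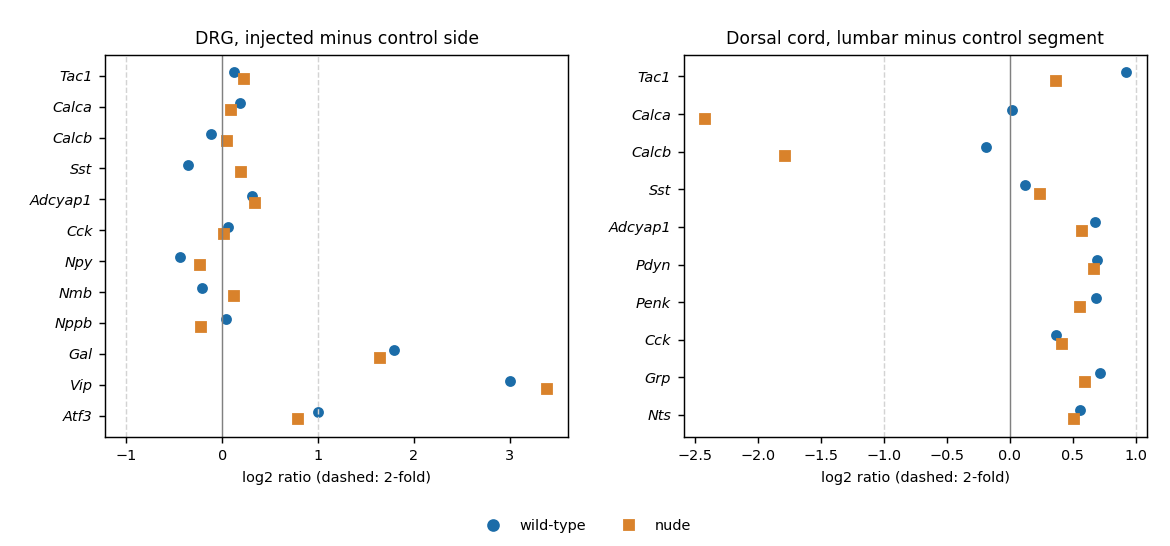
Log2 ratios for DRG (left panel, injected minus control side) and dorsal cord (right panel, lumbar minus control segment), 1 array against 1, with blue circles for wild-type and orange squares for nude rats and dashed lines at 2-fold. In DRG the members drawn lie between -0.35 and 0.34 and Gal and Vip lie past 1.6. In cord Calca and Calcb of nude rats stand at -2.42 and -1.78.

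The cord arrays compared the lumbar segment, where the injected nerve enters, with the cord above it. Here 8 of the 10 genes were higher in the lumbar segment in both rat types, by less than 2-fold, and the CGRP genes were lower there in nude rats. Over all genes, 4460 of 11065 were higher in the lumbar segment in wild-type and 4035 of 10689 in nude rats. Past 2-fold were 0 members in wild-type rats, where 1.74% of all genes were, and 2 members in nude rats, where 1.37% were. The lumbar minus control ratio of Calca was 0.02 for wild-type and -2.42 for nude rats, and that of Calcb -0.18 and -1.78.

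The other 8 genes lay in a narrow band. For Tac1 the wild-type ratio was 0.92 and the nude ratio 0.37, and for Adcyap1 they were 0.68 and 0.58. The opioid precursors gave 0.70 and 0.67 for Pdyn and 0.68 and 0.56 for Penk. Ratios were 0.72 and 0.60 for Grp, 0.56 and 0.51 for Nts, 0.37 and 0.42 for Cck, and 0.12 and 0.24 for Sst. Markers of dorsal horn neurons moved the same way: all 8 were higher in the lumbar segment in both rat types, with medians of 0.46 and 0.19, and their sum went from 201.5 to 283 in wild-type and from 212.5 to 246.7 in nude rats. The share of dorsal horn in each piece of tissue was not tested as a source of these ratios. The median of all genes was -0.07 in both rat types.

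The fit of a segment difference shared by both rat types called 0 of the 10 members, against 0.508% of 11229 genes, and 4 members had an unadjusted p under 0.05, as did 771 of all genes. These were Calcb (-0.98, SE 0.27, adjusted p = 0.16), Calca (-1.20, SE 0.36, adjusted p = 0.23), Tac1 (0.65, SE 0.22, adjusted p = 0.37) and Cck (0.39, SE 0.18, adjusted p = 0.69). In a limma fit without the nerve arrays Tac1 (adjusted p = 0.034) and Adcyap1 (0.63, adjusted p = 0.036) were called. Without a filter on dim probes the calls fell on the CGRP genes instead, Calca with an adjusted p of 3.2e-06 and Calcb with 0.0014.

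Other neuronal genes had a like order of levels on the cord arrays. Prph, an intermediate filament of sensory and motor neurons, had levels of 3.71 and 4.00 in the lumbar and control wild-type cord and 2.12 and 3.36 in the nude cord. Slc5a7, the choline transporter of motor neurons, had 2.59 and 2.95 in wild-type and 0.83 and 1.91 in nude rats. Like Calca and Calcb, both had their lowest level in the nude lumbar segment. The 3 motor neuron markers on the array summed to 8.62 and 10.1 times the median in the wild-type cord and to 2.90 and 5.33 in the nude cord. Most of this sum came from Slc5a7, while Slc18a3 had levels of 1.12 and 0.94 in the wild-type and 0.17 and 0.67 in the nude cord, and Chat was seen on the wild-type arrays alone, at -1.31 and -1.22. Of the defining sensory neuron genes, Scn10a, Scn11a, Trpv1, Avil and Isl1 were not well above background on any cord array. Whether the amount of motor neuron tissue in each piece carries the CGRP levels was not tested. Schwann cell markers summed to 402.5 in the lumbar and 125.3 in the control wild-type cord and to 329.3 and 131.8 in the nude cord. Over the 4 cord arrays the Pearson r of Calca with Calcb was 0.998, and those of Calca with the other members ran from -0.83 to 0.27, as a description of 4 points that share slide and segment.

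**Figure D4:**
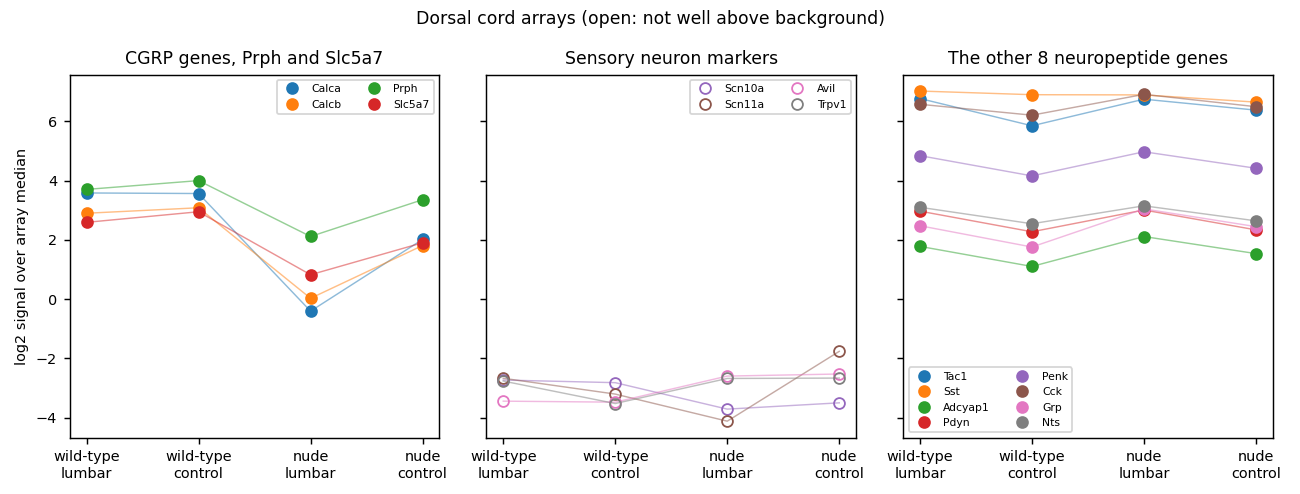
Levels on the 4 cord arrays (log2 of signal over the array median, y axis): Calca and Calcb with Prph and Slc5a7 (left), 4 sensory neuron markers that were not well above background (middle, open) and the other 8 peptide genes (right). The left genes have their lowest level in the nude lumbar segment, where Calca is at -0.40, while the right genes are higher in the lumbar segment of both rat types.

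The sciatic nerve holds axons and Schwann cells but no neuronal cell bodies. The peptide genes other than Cck were dim in it. Adcyap1, Pdyn, Grp and Nts were seen on none of the 4 nerve arrays. Cck and Calcb were seen on all 4. Cck had levels of 4.09 and 3.81 on the injected and control wild-type arrays and 3.55 and 3.25 on the nude ones, which placed its nerve arrays between its DRG and cord arrays. Calcb was at 0.47 and -0.56 in wild-type and 0.61 and -0.66 in nude rats, so that both injected arrays were above both control arrays. Before centring, its nude signal was lower on the injected array, at 23.46 against 30.95. The medians of these arrays were 23.5 and 83.91, so the direction in nude rats rests on the centring.

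Calca went the opposite way to Calcb in the nerve. Its levels were -0.30 on the injected and 0.69 on the control wild-type array, and -0.57, not well above background, and 1.28 on the nude ones. Tac1 was at -0.78 and -0.08 in wild-type rats and at -0.96 on the nude control array, and it was not well above background on the nude injected one. Penk was seen on the wild-type arrays alone, at -1.01 and -0.97, and Sst on the wild-type control array alone, at -0.88. For Calca the injected minus control ratio was -0.99 (wild-type) and -1.85 (nude), and for Calcb it was 1.03 and 1.27. Schwann cell markers were lower on the injected side, with sums of 1791 against 3032 in the wild-type and 1636 against 3253 in the nude nerve, and all 5 were called in the shared fit. Skeletal muscle markers summed to 114 and 14.1 times the median on the injected and control wild-type arrays and to 3.56 and 8.13 on the nude ones. The part of either tissue in the peptide ratios was not tested.

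Many genes differed between the nerve arrays. Past 2-fold in the nerve was 1 of 6 members in wild-type rats (8.76% of all genes) and 2 of 3 in nude rats (21.1% of all genes, whose median ratio was -0.38). The fit of a side difference shared by both rat types called 3 of 6 members, Calca (-1.43, SE 0.31, adjusted p = 0.0013), Calcb (1.15, SE 0.25, adjusted p = 0.0013) and Penk (0.83, SE 0.30, adjusted p = 0.042), but it also called 27.1% of 10725 genes. Penk was not counted as seen on the nude arrays, where 4 of its 10 spots on the injected and 2 of 10 on the control side were well above background, and the floors of these arrays were -0.62 and -2.19. Without the nude nerve arrays, an alternative chosen after seeing the data, the nerve is 1 array against 1 and its spread is assumed to be that of DRG and cord. In that limma fit Calca (-0.99, adjusted p = 0.26), Calcb (1.03, adjusted p = 0.093) and Penk (-0.033, adjusted p = 0.96) were not called, and the value of Sst turned from 0.40 to -0.78 (adjusted p = 0.019), with its injected array at the floor.

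Rat types are described side by side only. In DRG the nude arrays were above both wild-type arrays for Tac1, Calca and Calcb and below both for Sst and Cck, and they overlapped for Adcyap1. The nearest Cck arrays stood at 2.32 (nude) and 2.35 (wild-type). Before centring, the DRG signals of Tac1, Calca and Calcb were lower on both nude arrays than on both wild-type arrays. How many of all genes had such an order of 2 arrays against 2 was not counted. In cord the wild-type arrays were above both nude arrays for Calca and Calcb and overlapped with them for 7 of the other genes. For Sst the lower wild-type and the higher nude array were both at 6.90.

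The genes most alike to the members in level were found by Pearson correlation over the 12 arrays among 10373 genes, for the 7 members seen on at least 6 arrays. The 12 points fall into 3 tissues and share pools and slides, so the r values mainly describe tissue. Tac1 was most like Gng3 (r = 0.997), Fgf13 (0.995) and Epn3 (0.991). Calca was most like Prph (0.984), Calcb (0.972) and Abhd4 (0.967), and Calcb like Calca and Prph (0.966). Adcyap1 was most like Drgx (0.996), a transcription factor of sensory and dorsal horn neurons, then Galnt14 (0.995) and Sertm1 (0.993). Sst was most like Atp2b2 (0.995), Gjb6 (0.994) and Calb2 (0.994), of which Calb2, calretinin, marks dorsal horn interneurons. Penk was most like Aard (0.994), Kcnd2 (0.993) and the astrocyte glutamate transporter Slc1a2 (0.993), and Cck like Chst1 (0.988), Gng13 (0.985) and Vxn (0.984).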

How the data were processed

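Cy3-labelled total RNA was hybridized to Agilent SurePrint G3 Rat GE arrays. For the intensity values, the authors extracted the deposited spot signals with Agilent Feature Extraction (10.7.3.1 in the file headers, 10.5 in the submitters' notes), which subtracts local background, with no step between arrays. The deposited log2 values were normalized by the authors in GeneSpring and served as an alternative. Other deposited columns are flags the authors' software set for each spot.

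Flagged outlier spots were dropped, log2 signals were averaged per probe, and each array was centred on its median. RefSeq accessions named 18006 of 30367 probes (GRCr8), and a gene took its brightest probe. Probe sequences were not searched, so near-identical transcripts were not set apart.

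Tests used limma 3.58.1 in R 4.3.3 with Benjamini-Hochberg adjustment over all genes. The tissue test had genes well above background on at least 4 of 8 arrays and 5 residual degrees of freedom, and the shared side test 3. Side ratios within a rat type have no test. The t-test of the methods needs replicate arrays and was not run. Fits were tested on simulated data with 200 changed genes, all seen on every array. At 2-fold the tissue fit recovered 170 of them and the shared DRG side fit 88. At 4-fold they recovered 197 and 192. Normexp correction (offset 50) used the median spot signal.

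The members, the 6 pathway and 7 marker lists and the tests were chosen with earlier results of these data known. The named genes were all members and receptors, up to 4 called genes of each other list with the largest difference, genes past 2-fold in DRG of both rat types, and the 3 genes most alike to a member, of which 1 is not reported here. Atf3, Npy and the marker genes of the cord were added for a result that touches them.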

Additional observations from a re-analysis of the deposited data

Results flagged for a closer look

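Dixon's ratio, the gap of the most distant array over the range of the 4, flagged no array in the 18 sets of 4 arrays of a member in a tissue. With 4 points this rule flags only extreme cases. The widely spread cord arrays of Calca, at 2.19 ± 1.88 (SD, n = 4), were not flagged by it. In 3 cases the side ratios of the rat types had opposite signs, with 1 array per condition, so the difference was not tested. The wild-type minus nude log2 side ratio in DRG was -0.168 for Calcb and -0.547 for Sst. In the dorsal cord that of Calca was 2.44, from a wild-type ratio of 0.02 and a nude ratio of -2.42.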

How the results depend on the processing

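The tissue calls of 9 members, and the direction of all 10, held under each alternative in which the gene could be tested, including either rat type or side alone, a random block for the pool (consensus correlation -0.13) and every array left out in turn. Requiring signal on every array left 2 members called higher in cord. With an array left out, genes called higher in DRG were 1285 to 1343 and in cord 1778 to 1910, with 3 and 6 members throughout. Normexp correction gave 442 genes higher in DRG, and no fold threshold gave 3128 in DRG and 4503 in cord.

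Shared DRG differences called 2 genes with the 75th percentile, 3 after quantile normalization, 3 with the authors' values, 15 after normexp, 10 without floors, 28 without a filter and 1 with signal on every array, with no member among them. In cord the counts were 94 (quantile), 91 (authors' values), 160 (no filter), 363 (DRG and cord alone) and 373 (without the nude nerve arrays), with 2, 2 and 1 members called in the last 3. In nerve they were 1170 genes and 0 members after normexp, 1 member with signal on every array, and 1672 genes without the nude nerve arrays, where Sst (-0.78) and Penk (-0.033) reversed. DRG ratios past the threshold numbered 33 in wild-type and 24 in nude rats after normexp, 265 and 205 without floors (with 1 member, Penk), 699 and 631 at 1.5-fold, 21 and 28 at 3-fold, and 54 in nude rats with signal on every array. The labels give no replicate numbers to pair by, and the shared side fit already compares arrays within each tissue and rat type. Dim signals limit Pdyn, Grp and Nts to bounds in DRG, and also Penk on all but 1 array.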
